A study of Mus musculus with 8 samples.

Results

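The natriuretic peptide system of the heart was followed through 6 genes that were chosen by name: the peptide genes Nppa and Nppb, the protease gene Corin and the receptor genes Npr1, Npr2 and Npr3. All 6 had values in the deposited table, among 18835 genes with values of 56941 listed. RNA had been sequenced from hearts of 8 male BALB/cAJcl mice, 10 weeks old, all immunized with cardiac myosin, which sets off an autoimmune inflammation of the heart muscle. In the VEGF-C group, 4 animals were injected intraperitoneally with VEGF-C C156S at 1 µg per day on days 7 to 10 after immunization. In the PBS group, 4 immunized animals received PBS over the same days, and all hearts were taken in week 3. VEGF-C C156S is a form of the lymphatic growth factor that acts on the receptor VEGFR-3. No unimmunized hearts were analysed here, so every difference is between hearts with myocarditis. The series title names lymphatic endothelial cells, but each sample is labelled as heart, and the sarcomere gene Myh6 averaged 1707042 normalized counts in VEGF-C hearts and 1375664 in PBS hearts.

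Atrial natriuretic peptide, encoded by Nppa, and B-type natriuretic peptide, encoded by Nppb, are hormones of cardiac muscle that lower blood pressure and blood volume. Atrial muscle stores most of the atrial peptide, and ventricular muscle makes more of both under stretch, which is why their transcripts serve as markers of cardiac stress. Corin is a membrane protease of cardiac muscle that cuts the precursor of the atrial peptide into the active hormone. Npr1 encodes the guanylyl cyclase receptor for both peptides, Npr2 the cyclase receptor for C-type natriuretic peptide, and Npr3 the clearance receptor, which takes peptides up and has no cyclase domain.

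The stretches of DNA just before the starts of Nppa, Nppb and Corin are shown because these genes are transcribed in cardiac muscle. Short motifs of factors known to act on the peptide promoters are marked, and the transcript values of such factors are given further below. A link between a marked motif and a difference between the groups was not tested. RefSeq (GRCm38.p6) supplied the 250 bases before each start. Capitals mark matches on either strand to GATAA (the core bound by GATA factors), AAGTG (NKX2-5), CATTCC (the M-CAT element of TEAD factors) and GGTGTG (T-box factors), and on the gene's own strand to TATAAA.
Nppa, chr4:148000472-148000721, plus strand: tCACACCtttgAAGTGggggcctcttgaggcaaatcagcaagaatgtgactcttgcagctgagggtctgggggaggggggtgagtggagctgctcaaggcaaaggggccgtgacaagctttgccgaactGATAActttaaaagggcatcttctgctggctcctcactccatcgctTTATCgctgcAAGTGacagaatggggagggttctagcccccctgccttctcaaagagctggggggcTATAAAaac
Nppb, chr4:147985650-147985899, plus strand: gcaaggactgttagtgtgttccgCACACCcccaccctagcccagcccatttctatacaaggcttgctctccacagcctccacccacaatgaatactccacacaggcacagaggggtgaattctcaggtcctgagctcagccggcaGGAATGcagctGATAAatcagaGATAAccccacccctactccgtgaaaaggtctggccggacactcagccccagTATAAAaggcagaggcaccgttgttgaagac
Corin, chr5:72504541-72504790, minus strand: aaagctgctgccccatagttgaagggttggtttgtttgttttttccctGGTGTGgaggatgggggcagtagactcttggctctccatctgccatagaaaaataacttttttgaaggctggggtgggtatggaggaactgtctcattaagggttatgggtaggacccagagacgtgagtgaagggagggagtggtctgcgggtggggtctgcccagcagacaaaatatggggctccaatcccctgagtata

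Both peptide promoters held 2 matches to GATAA, 1 to GGTGTG and 1 to TATAAA. Nppa had 2 matches to AAGTG besides, and Nppb had 1 match to CATTCC. Corin had 1 match to GGTGTG, and the windows of Npr1, Npr2 and Npr3 had 0 matches to any of these letters. Of 32851 such windows in the table, 22.6% held GATAA, 40.7% AAGTG, 12.6% CATTCC, 16.3% GGTGTG and 7.59% TATAAA. The CArG box bound by SRF, searched only in its strict form (CC, 6 bases of A or T, GG), was found in 1.47% of windows and in 0 of the 6. Near matches were not counted, such as ctttaaaagg in the Nppa window, which is 1 base from that form. No match overlapped another in these windows, and a match is not evidence of binding.

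Read totals were between 53.7 and 65.2 M in VEGF-C hearts and between 61.7 and 76.8 M in PBS hearts. PBS replicate 1 stood apart from the other 7 libraries on the second principal component, which held 19.7% of the variance. Atrial and fat genes varied widely within the groups, as given below beside the results they touch. The groups were apart on the first component (37.0% of the variance). An adjusted p under 0.05 in limma was reached by 15.7% of the genes, 7.05% higher and 8.61% lower in VEGF-C hearts, and the median log2 fold change of all genes was 0.00. Among the 6 natriuretic genes 2 passed, Corin as higher and Npr1 as lower in VEGF-C hearts. The ranges of the groups did not overlap in 1 of the 6, Corin, against 23.0% of all genes. In whole tissue, more RNA per cell and more cells of a type cannot be told apart.

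**Figure D1:**
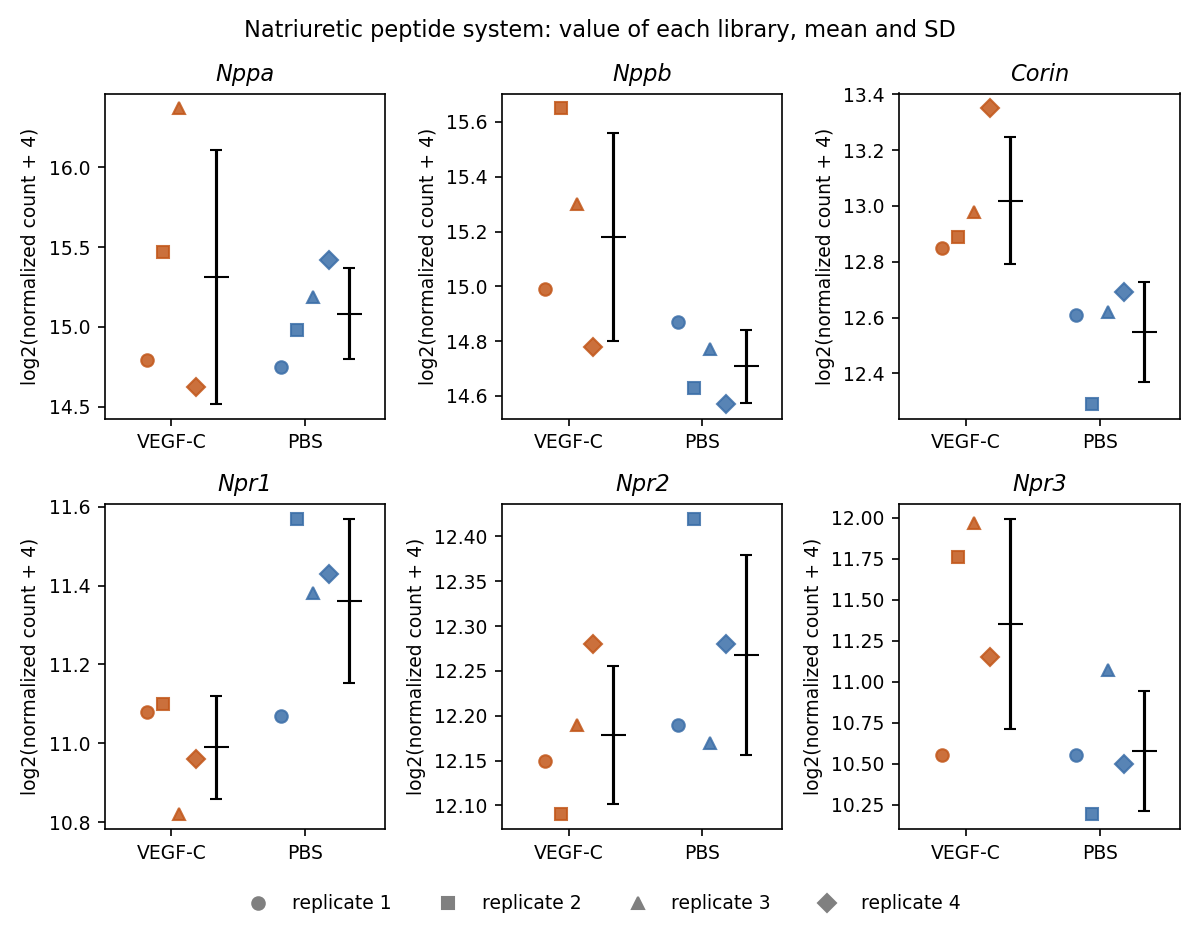
Each panel shows 1 gene, with the log2 of the normalized count plus 4 in every library (symbols by replicate number, VEGF-C left and PBS right) and the group mean with its SD (black). The groups are fully apart in Corin, VEGF-C replicate 3 is far above the rest in Nppa, and PBS replicate 1 sits among the VEGF-C hearts in Npr1.

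The peptide transcripts were by far the most abundant of the 6. Per kilobase of exon, Nppa averaged 53081 ± 31760 normalized counts in VEGF-C hearts and 40733 ± 8082 in PBS hearts (SD, n = 4 each). Nppb averaged 48776 ± 13074 per kilobase in VEGF-C hearts and 34383 ± 3189 in PBS hearts, and the ranges of Nppa and Nppb overlapped in both groups. Corin came next, at 1551 ± 261 per kilobase in VEGF-C hearts and 1115 ± 131 in PBS hearts. Npr2 was the most abundant receptor transcript, at 993 ± 53.4 per kilobase in VEGF-C hearts and 1058 ± 83.6 in PBS hearts. The ranges of Corin and Npr2 overlapped in PBS hearts, where Corin spanned 925 to 1220 per kilobase, and lay apart in VEGF-C hearts, where Corin spanned 1364 to 1933 and Npr2 935 to 1063. Npr1 averaged 426 ± 37.7 per kilobase in VEGF-C hearts and 554 ± 76.7 in PBS hearts. Npr3 was lowest, at 298 ± 121 per kilobase in VEGF-C hearts and 166 ± 44.4 in PBS hearts, and its range overlapped that of Npr1 only in VEGF-C hearts. Even for Npr3 the smallest library held 1188 reads, a counting error of 2.90%.

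Nppa (ENSMUSG00000041616) did not pass the test, and it varied more between animals than any other of the 6 in VEGF-C hearts. It had 28282, 45244, 84944 and 25190 normalized counts in VEGF-C replicates 1 to 4, against 27464, 32373, 37266 and 43833 in PBS replicates 1 to 4. VEGF-C hearts held both the highest and the lowest values of the 8, 3.37-fold apart, and the PBS hearts lay between them. Over the groups the log2 fold change was 0.23 ± 0.33 (SE), with a 95% interval of -0.50 to 0.96 and an adjusted p of 0.673. Without VEGF-C replicate 3 it was -0.13 (adjusted p = 0.747). The interval allows a level in VEGF-C hearts between 0.705 and 1.95 times that of PBS hearts.

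VEGF-C replicate 3, the library highest in Nppa, was the highest of the 8 libraries in 9 of 14 genes of atrial muscle, and not in Bmp10, Nr2f2, Kcnj5, Gja5 and Dkk3. Myl4, the atrial light chain, had 10699, 10623, 49076 and 8650 normalized counts in VEGF-C replicates 1 to 4, against 15096, 16088, 15326 and 31231 in PBS replicates 1 to 4. The atrial light chain gene Myl7 had 8245, 8024, 25088 and 5400 in VEGF-C hearts, against 10752, 10446, 9118 and 13965 in PBS hearts. Sln, the atrial regulator of the calcium pump, had 1839, 2208, 6401 and 1549 in VEGF-C hearts, against 2907, 1946, 2745 and 3440 in PBS hearts. In all of Nppa, Myl4, Myl7 and Sln, VEGF-C replicate 3 was highest, VEGF-C replicate 4 lowest, and PBS replicate 4 the highest of its group. VEGF-C replicate 2 had the next highest Nppa value of its group, above every PBS heart, but Myl4 and Myl7 below every PBS heart. In Myl4 and Myl7, VEGF-C replicates 1 and 4 were below every PBS heart too.

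Bmp10, a growth factor of the right atrium, had 38, 8628, 7186 and 3202 normalized counts in VEGF-C replicates 1 to 4, against 3155, 10, 3624 and 1860 in PBS replicates 1 to 4. Each group thus had 1 library with almost no Bmp10 RNA. Of the 14 atrial genes listed, 1 passed (7.14%, against 15.7% of all genes), the potassium channel gene Kcna5 (log2 fold change 0.73 ± 0.16, adjusted p = 0.0161). None of the 14 was at 0 in any library. The summed level of the list was 121854 to 238863 normalized counts in VEGF-C hearts and 110940 to 158520 in PBS hearts. Most of that sum was 1 gene, Pam, with means of 97507 in VEGF-C hearts and 70772 in PBS hearts. The ventricular list had 0 of 8 genes past the threshold and a median of 0.19 that was 0.00 with library totals, and its lead gene Myl2 had a log2 fold change of 0.34 ± 0.18. The part of atrial tissue in the Nppa values was not tested.

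**Figure D2:**
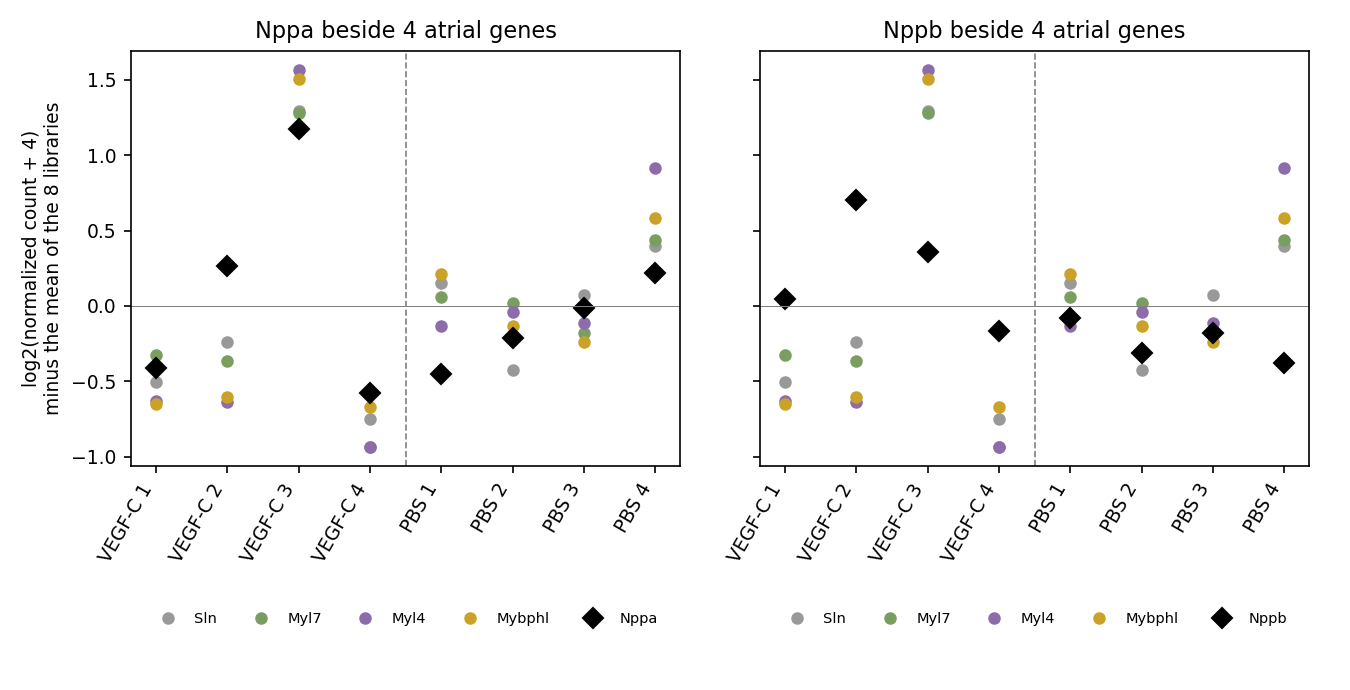
Log2 values of Nppa (left, black) and Nppb (right, black) and of 4 atrial genes (colours), each minus its own mean over the 8 libraries, are plotted by library with VEGF-C left of the dashed line and PBS right of it. Nppa and the 4 atrial genes shown are highest in VEGF-C replicate 3, while Nppb is highest in VEGF-C replicate 2, where those 4 genes are below their own means. The 4 shown are from the 9 of 14 atrial genes that are highest in VEGF-C replicate 3. Another 4, Bmp10, Dkk3, Gja5 and Nr2f2, are not shown and are highest in VEGF-C replicate 2, as Nppb is.

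Nppb (ENSMUSG00000029019) averaged 38094 ± 10211 normalized counts in VEGF-C hearts and 26853 ± 2491 in PBS hearts (SD, n = 4 each), and did not pass the test. The VEGF-C hearts had 32574, 51352, 40416 and 28036 normalized counts, against 29848, 25432, 27852 and 24280 in the PBS hearts. In 3 of 4 VEGF-C hearts the value was above the highest PBS heart, and the remaining one, replicate 4, lay between PBS replicates 1 and 3. The log2 fold change was 0.47 ± 0.17 (SE; 95% interval 0.10 to 0.84), with an adjusted p of 0.0821 in limma and an exact two-sided permutation p of 0.0571. Without VEGF-C replicate 4 the adjusted p was 0.0369 and the log2 fold change 0.61, and without VEGF-C replicate 2 they were 0.152 and 0.31. The authors' deposited table gives Nppb a log2 fold change of 0.50 and an adjusted p of 0.0159, on the lower side of the threshold, where that table places 21.7% of its genes.

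The balance between the peptides did not separate the groups. The log2 ratio of Nppb to Nppa within a library was 0.20, 0.18, -1.07 and 0.15 in VEGF-C replicates 1 to 4, against 0.12, -0.35, -0.42 and -0.85 in PBS replicates 1 to 4. VEGF-C replicate 3, the library with most Nppa, had the lowest ratio of all. Without it the remaining VEGF-C values were all above those of PBS.

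Corin (ENSMUSG00000005220) was higher in VEGF-C hearts, with 7364, 7612, 8094 and 10439 normalized counts in replicates 1 to 4, against 6234, 4993, 6276 and 6590 in PBS replicates 1 to 4. All 4 VEGF-C hearts were above all 4 PBS hearts. The log2 fold change was 0.47 ± 0.12 (SE; 95% interval 0.19 to 0.74), 1.14 to 1.68 times the PBS level over that interval, with an adjusted p of 0.0302. Its exact permutation p was 0.0286, the smallest that 4 against 4 libraries can give. The call was lost without VEGF-C replicate 3 or 4 or PBS replicate 2 or 3 (adjusted p up to 0.0681) and with scaling by library totals (0.139). Of 12 sarcomere genes, which mark the muscle that makes Corin, 3 passed (25.0%, against 15.7% of all genes): Actn2 (log2 fold change 0.61), Myom1 (0.43) and Myom2 (0.58), all higher. The other 9 did not. They ran from Tnnt2 (-0.01), Tnni3 (0.06) and Mybpc3 (0.17) to Actc1 (0.48, adjusted p = 0.0684) and Ttn (0.50, adjusted p = 0.0573). Log2 fold changes were positive in 11 of the 12. The ranges of the groups did not overlap in 6 of the 12, against 23.0% of all genes. The summed level of that list was 4556691 to 5128501 normalized counts in VEGF-C hearts and 3456085 to 4304250 in PBS hearts, without overlap. This sum was taken with the deposited scaling only, and the list median of 0.32 was 0.13 with library totals. The Myom2 call was lost in 6 of the 8 fits that leave out 1 library and that of Myom1 without PBS replicate 2. With library totals 1 of the 12 passed, Actn2, and the part of muscle content in the Corin values was not tested.

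Npr1 (ENSMUSG00000027931) was lower in VEGF-C hearts, which had 2166, 2192, 1805 and 1982 normalized counts, against 2151, 3027, 2654 and 2761 in PBS hearts. PBS replicate 1 lay inside the VEGF-C range and the other 3 PBS hearts above it. The log2 fold change was -0.37 ± 0.11 (SE; 95% interval -0.62 to -0.13) with an adjusted p of 0.0463, and the exact permutation p was 0.0857. The decrease was larger without PBS replicate 1 (log2 fold change -0.47, adjusted p = 0.0107), and the call was lost without any other single library (adjusted p up to 0.123). Npr1 is transcribed in endothelium, smooth muscle and fat, among other cells. Of 10 blood endothelial genes 1 passed (10.0%, against 15.7% of all genes), Egfl7 as lower (-0.92). Log2 fold changes were positive in 7 of the 10, with a list median of 0.10. With library totals 2 of the 10 were positive and the median was -0.09. Of 10 smooth muscle and pericyte genes 1 passed (10.0%), Smtn as lower (-0.54). Their median was 0.02, and it was -0.03 with upper-quartile factors and -0.17 with library totals. The Smtn call was lost in 5 of the 8 fits that leave out 1 library.

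Fat genes also differed between animals. The adipocyte hormone Adipoq had 488, 36, 846 and 58 normalized counts in VEGF-C hearts, against 1664, 895, 818 and 997 in PBS hearts. Of 8 adipocyte genes 0 passed, with a median log2 fold change of -2.30, and VEGF-C replicates 2 and 4 were lowest in Adipoq. Log2 fold changes were negative in 7 of the 8, among them Fabp4 at only -0.03, and positive in Cidea (0.22). With library totals 1 of the 8 passed, as lower. The summed level of the list was 48773 to 59334 normalized counts in VEGF-C hearts and 56546 to 68121 in PBS hearts, most of it Fabp4, which blood vessels also make, and 2 of the 8 genes, Lep and Ucp1, were at 0 in at least 1 library. The part of fat in the Npr1 values was not tested.

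Npr2 (ENSMUSG00000028469) varied least of the 6 and did not pass. Its normalized counts were 4554, 4363, 4670 and 4959 in VEGF-C hearts, against 4682, 5471, 4614 and 4981 in PBS hearts. Its log2 fold change was -0.09 ± 0.08 (SE; 95% interval -0.26 to 0.08; adjusted p = 0.452). With scaling by library totals it was -0.28 and passed (adjusted p = 0.0278), a scaling that moved the median of all genes by -0.19.

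Npr3 (ENSMUSG00000022206) had the largest log2 fold change of the 6 and did not pass, and the animals differed widely. The VEGF-C hearts had 1492, 3454, 4002 and 2261 normalized counts, against 1498, 1162, 2147 and 1445 in the PBS hearts. In 3 of 4 VEGF-C hearts Npr3 was above every PBS heart, while VEGF-C replicate 1 was level with PBS replicate 1. On the log2 scale the difference was 0.78 ± 0.29 (SE; 95% interval 0.14 to 1.42), with an adjusted p of 0.0926 and an exact permutation p of 0.0857. Without VEGF-C replicate 1 it was 1.04 with an adjusted p of 0.0264. The endocardium, the inner lining of the heart, is a main site of Npr3. Of 8 endocardial genes 2 passed (25.0%, against 15.7% of all genes), both higher. They were the transcription factor Nfatc1 (0.37 ± 0.07) and the clotting protein Vwf (0.64 ± 0.14), which other endothelium also makes. The summed level of the endocardial list was 29562 to 40318 normalized counts in VEGF-C hearts and 19365 to 27115 in PBS hearts, without overlap, and none of the 8 was at 0. Vwf was the largest part of that sum, with means of 15849 in VEGF-C hearts and 10266 in PBS hearts. Log2 fold changes were positive in 7 of the 8 and negative in Hapln1 (-0.94). The sum was taken with the deposited scaling only, and the list median of 0.35 was 0.16 with library totals. With library totals 0 of the 8 passed, and the part of endocardial content in the Npr3 values was not tested.

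The balance of the clearance receptor Npr3 and the cyclase receptor Npr1 overlapped between the groups. The log2 ratio of Npr3 to Npr1 within a library, which does not depend on scaling, was -0.54, 0.66, 1.15 and 0.19 in VEGF-C replicates 1 to 4, against -0.52, -1.38, -0.30 and -0.93 in PBS replicates 1 to 4. The group means were 0.36 ± 0.72 in VEGF-C hearts and -0.78 ± 0.47 in PBS hearts (SD, n = 4 each), a difference of 1.15. VEGF-C replicate 1 and PBS replicate 1 lay side by side, and the other 3 VEGF-C hearts were above all PBS hearts. The log2 ratio of Npr1 to Npr2 was -1.07, -0.99, -1.37 and -1.32 in VEGF-C hearts, against -1.12, -0.85, -0.80 and -0.85 in PBS hearts. It was lower in each VEGF-C heart than in PBS replicates 2 to 4.

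**Figure D3:**
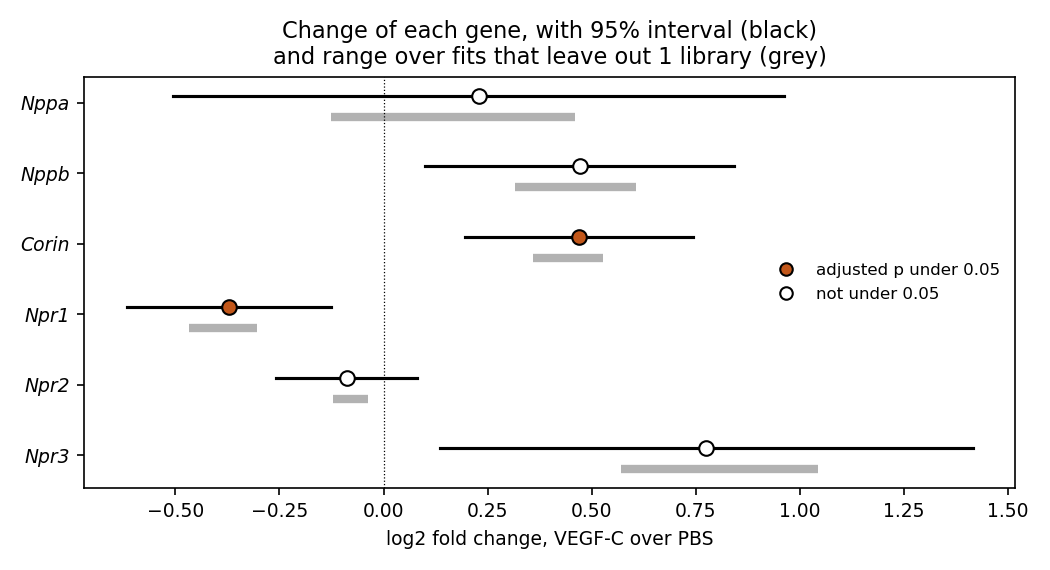
The log2 fold change of each gene, VEGF-C over PBS, is drawn with its 95% interval (black; filled where the adjusted p is under 0.05), and the grey bar below spans the fits that leave out 1 library. Corin and Npr1 are filled, the grey bar of Nppa crosses 0, and Npr3 has the largest change (0.78) beside a wide interval.

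Of 24 further genes of peptide processing and of the cyclic GMP pathway, 21 had values and 5 passed (23.8%, against 15.7% of all genes), 4 higher and 1 lower in VEGF-C hearts. Their median log2 fold change was 0.20 with 15 of 21 positive, and 0.01 with 11 of 21 positive under library totals, where 1 was higher and 2 lower. The proprotein convertase Furin, which cuts the precursor of the B-type peptide, had 9452, 9735, 10065 and 8945 normalized counts in VEGF-C hearts, against 7542, 6499, 6042 and 7020 in PBS hearts, without overlap (log2 fold change 0.50 ± 0.08, adjusted p = 0.00426). Pcsk6, a convertase that activates Corin, had 4929, 4079, 5982 and 6266 in VEGF-C hearts, against 3344, 4006, 3142 and 3774 in PBS hearts (0.56 ± 0.14, adjusted p = 0.0221). Its groups came within 4079 and 4006 of each other, and the call was lost without VEGF-C replicate 3 or 4 or PBS replicate 3 (adjusted p up to 0.0646). Ide, a protease that degrades the atrial peptide, rose by 0.36 (adjusted p = 0.00796). Neprilysin, encoded by Mme and known for breaking down natriuretic peptides, had a log2 fold change of 0.20 ± 0.19 and did not pass. Pam, an amidating enzyme abundant in atrial granules, did not pass either (0.45 ± 0.16, adjusted p = 0.0768).

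Downstream of the receptors, the phosphodiesterase gene Pde9a, whose enzyme breaks down cyclic GMP, averaged 298 ± 29.0 normalized counts in VEGF-C hearts and 404 ± 21.7 in PBS hearts, and fell by 0.44 (adjusted p = 0.0272), a call lost without VEGF-C replicate 2, 3 or 4 or PBS replicate 2 or 4 (adjusted p up to 0.0715). Pde1c, a phosphodiesterase for both cyclic nucleotides, rose by 0.42 (adjusted p = 0.0209). The cyclic GMP-dependent kinase Prkg1 (0.28 ± 0.14) and the cyclic GMP phosphodiesterase Pde5a (-0.08 ± 0.15) did not pass. Nppc, which encodes the C-type peptide, was barely detected, with 13, 21, 9 and 16 normalized counts in VEGF-C hearts and 8, 18, 14 and 32 in PBS hearts, and no difference was detectable at this depth. Furin kept its call under each other scaling and without any 1 library (adjusted p up to 0.0179). With library totals 3 of the list passed, Furin as higher and 2 as lower, and Pcsk6, Ide and Pde1c did not. Without VEGF-C replicate 2, 3 or 4 the count was also 3.

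Among regulators known to act on the peptide genes, 7 of 24 passed (29.2%, against 15.7% of all genes), 6 higher and 1 lower, with a median log2 fold change of 0.23 that was 0.04 with library totals. Myocd, the muscle coactivator of SRF, had 2648, 2554, 2880 and 3405 normalized counts in VEGF-C hearts, against 1845, 1787, 1720 and 2140 in PBS hearts, without overlap (0.61 ± 0.11, adjusted p = 0.00546). Srf itself rose by 0.46 (adjusted p = 0.0218), the homeobox factor Nkx2-5 by 0.46 (0.0341), Gata6 by 0.41 (0.0147), Tead1 by 0.38 (0.0451) and Klf15, a factor that restrains cardiac growth, by 0.30 (0.0451). Jarid2, a repressor of Nppa, fell by 0.39 (0.0306). Gata4 (0.18 ± 0.09), Tbx5 (0.24 ± 0.16) and the repressor Rest (-0.12 ± 0.09) did not pass. Myocd kept its call in each alternative scaling and without any 1 library (adjusted p up to 0.0196), and Gata6 without any 1 library (up to 0.0398). Of the 8 fits that leave out 1 library, the call was lost in 3 for Srf, 5 for Nkx2-5, 5 for Jarid2, 6 for Tead1 and 7 for Klf15. The count was 4 with upper-quartile factors, 3 with library totals (1 higher, 2 lower), 2 without VEGF-C replicate 2, 3 without VEGF-C replicate 3, and 4 without VEGF-C replicate 4 or PBS replicate 2, 3 or 4.

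Genes of hypertrophy and wall stress had a median log2 fold change of 0.39 that was 0.20 with library totals, and 2 of 14 passed, both higher (14.3%, near the 15.7% of all genes). Ccn2, a matrix protein gene induced by stretch, averaged 25425 ± 9619 normalized counts in VEGF-C hearts and 13153 ± 3348 in PBS hearts (0.91 ± 0.26, adjusted p = 0.0380), and Xirp1, a gene of the intercalated disc, rose by 0.48 (0.0238). The fetal sarcomere genes Acta1 (0.55 ± 0.24) and Myh7 (0.33 ± 0.15) and the stretch-responsive Ankrd1 (0.10 ± 0.16) did not pass. The count was 0 with library totals or without VEGF-C replicate 2 or 3 or PBS replicate 2 or 4, and 1 with upper-quartile factors or without PBS replicate 1 or 3. Of 10 leukocyte genes 4 passed (40.0%, against 15.7% of all genes), all lower: Ptprc (-0.66 ± 0.16), Csf3r (-0.77), Ly6c2 (-0.39) and the B cell gene Cd79a (-1.56). Each of these 4 calls was lost without VEGF-C replicate 3. Log2 fold changes were negative in 7 of the 10 and positive in Cd3e (0.40), Adgre1 (0.14) and Cd74 (0.14). The median of the 10 was -0.29. With library totals it was -0.48, and 6 of the 10 passed, all lower. The leukocyte list had a summed level of 99903 to 136358 normalized counts in VEGF-C hearts and 96960 to 139962 in PBS hearts. Most of that sum was 1 gene, Cd74, with means of 91865 in VEGF-C hearts and 83857 in PBS hearts. In the fibroblast list 1 of 10 passed (10.0%, against 15.7% of all genes), Col1a1 as higher (0.69 ± 0.14). The list median was 0.09, and -0.10 with library totals.

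**Figure D4:**
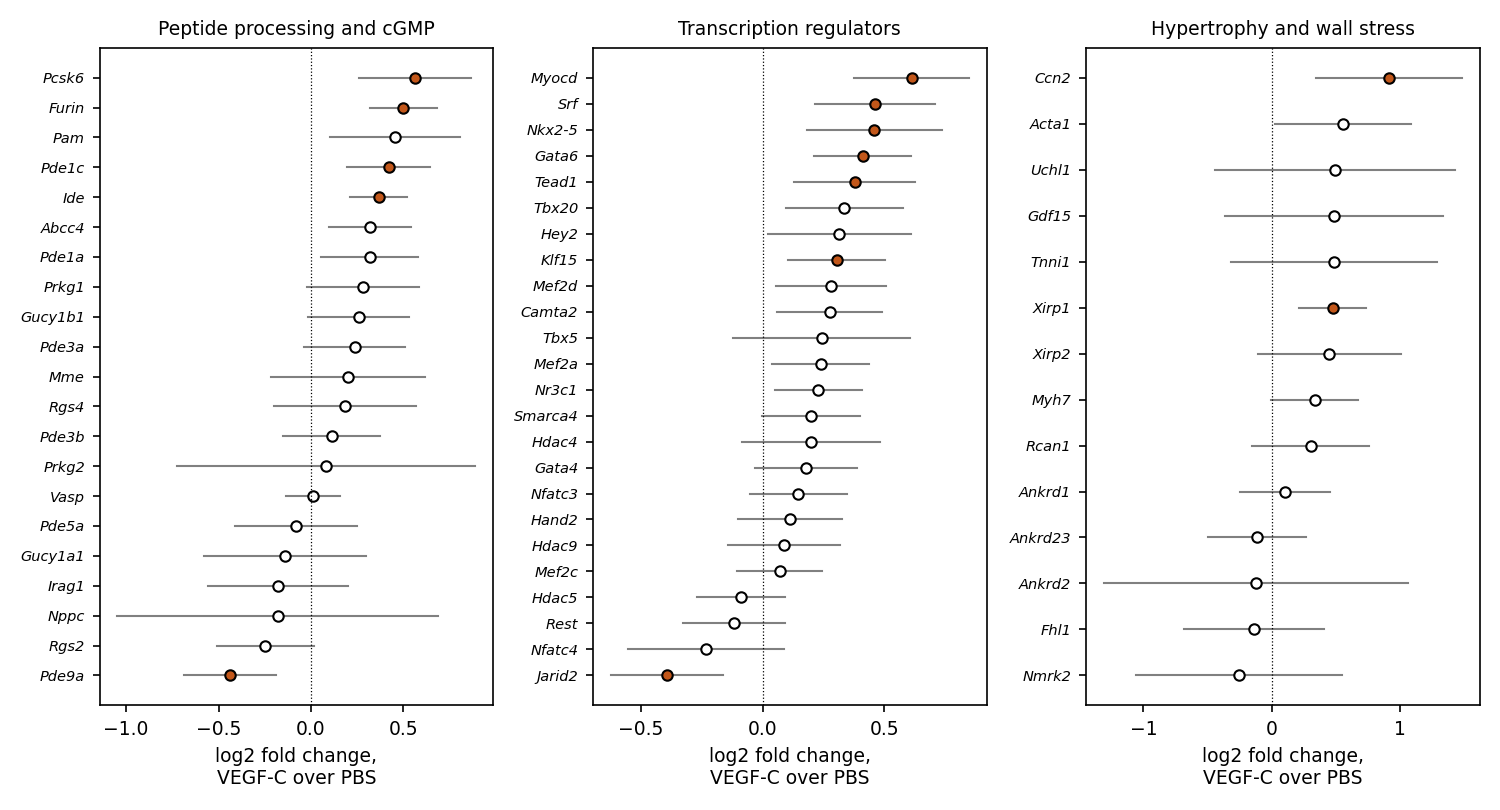
Log2 fold changes (VEGF-C over PBS) with 95% intervals are shown for 21 genes of peptide processing and cyclic GMP, 24 transcription regulators and 14 stress genes, filled where the adjusted p is under 0.05. Filled points are 4 higher and 1 lower, 6 higher and 1 lower, and 2 higher in this order.

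Nppb and Nppa lie next to each other on chromosome 4. On the Nppb side, in RefSeq's order, Mfn2, a fusion protein of mitochondria, rose by 0.42 (adjusted p = 0.0382), Plod1, a collagen hydroxylase, rose by 0.34 (0.0245), and 2510039O18Rik did not pass (0.20 ± 0.06, adjusted p = 0.0531). Next to Nppa on its other side, the chloride transporter gene Clcn6 had a log2 fold change of 0.17 ± 0.10 and did not pass. The antisense gene Gm13054, named for its place and not by a rule, overlaps Nppa in GENCODE M21. It had 24, 29, 67 and 14 normalized counts in VEGF-C hearts and 55, 55, 49 and 49 in PBS hearts, far below Nppa, but the sources used here do not say whether counting used strand, so reads of the pair could be shared. Npr2 has an antisense partner too, Gm12473, at 187 normalized counts in VEGF-C hearts and 185 in PBS hearts on average.

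**Figure D5:**
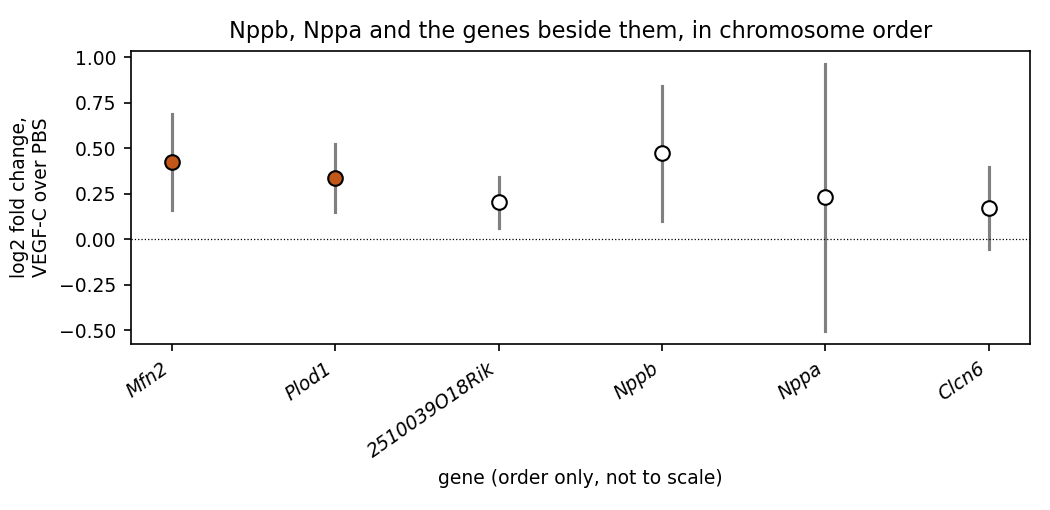
Log2 fold changes (VEGF-C over PBS) with 95% intervals for Nppb, Nppa, the 3 genes with values on the Nppb side and Clcn6 on the Nppa side, in chromosome order and not to scale, filled where the adjusted p is under 0.05. Mfn2 and Plod1 are higher, and Nppa has the widest interval.

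The genes whose profile over the 8 libraries was most like that of each member were found by the root mean square difference of log2 values, each centred on its own mean, among 12470 genes. For Nppa these were Synm, Plagl1 and Myl1, with differences of 0.22, 0.24 and 0.25 beside a spread of 0.53 in Nppa itself. For Nppb they were Fstl3, Shisa3 and Ddah1 (0.09, 0.10 and 0.12 beside 0.34), and for Corin Jmy, Pdpk1 and Sacm1l (0.08, 0.08 and 0.09 beside 0.29). Npr1 was closest to Bicdl1, Ppp2r3d and Chd3 (0.06, 0.07 and 0.07 beside 0.24), and Npr3 to Smoc1, Npy1r and Enpp6 (0.21, 0.23 and 0.24 beside 0.60). Npr2, with a spread of only 0.09, was closest to Cnot10, Taok2 and Ap1ar, each at 0.04. No member was among the 3 closest genes of another.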

How the data were processed

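Build GRCm39 is listed in the submitters' processing notes, with DESeq2 1.38.3, Subread 2.0.1, featureCounts, STAR 2.7.10a and Trim Galore 0.6.10 as tools. An annotation release and a strand setting are not given there or in the labels. Each deposited value equals the log2 of a normalized count plus 4: after division by 1 factor per library, 100% were whole reads within 0.01 reads. Normalized counts printed here undo that log. The authors also deposited, for each gene, a fold change on the log2 scale with an adjusted p-value. Column numbers tie to no animal in the labels, so nothing was paired.

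All 18835 genes were fitted with limma 3.58.1 (R 4.3.3) with a mean-variance trend, VEGF-C against PBS, and adjusted by Benjamini-Hochberg over all genes (two-sided, threshold 0.05). Exact permutation used 70 assignments. Values are mean ± SD of 4 hearts and fold changes carry SE. Exon lengths came from GENCODE M21. The members and lists were chosen with earlier results of these data known. The named genes are the members, list genes past the threshold or with a defining role, neighbours and the 3 closest profiles. Other marker genes are named to show the spread, the sum or the direction of their list. Alternatives were other scalings, pseudocounts, filters, variance models and leaving out each library; their effect is given at the end. Part of the neighbour comparison is not reported here. Some first-listed genes of the marker lists are not printed. The labels used here name no batch. The limma p-values set the difference of the group means against the spread between hearts within a group, estimated with information from all genes. They cover these 8 hearts only.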

Additional observations from a re-analysis of the deposited data

Results flagged for a closer look

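In 48 groups of 4 libraries examined (members, ratios and atrial genes), 8 had 1 library far from the other 3. Chance flags about 1 in 20 independent groups. These groups share libraries and genes, so the 8 cannot be judged against that rate. The log2 ratio of Nppb to Nppa was -1.07 in VEGF-C replicate 3, with the other VEGF-C hearts at 0.15 to 0.20. The log2 ratio of Npr1 to Npr2 was -1.12 in PBS replicate 1, with the other PBS hearts at -0.85 to -0.80. The log2 value of Myl4 was 15.58 in VEGF-C replicate 3 and 14.93 in PBS replicate 4, each the highest of its group. Mybphl, another atrial gene, was at 11.86 in VEGF-C replicate 3. The log2 value of Bmp10 was 3.78 in PBS replicate 2, the lowest of its group. Dkk3 was at 11.50 in PBS replicate 1, the lowest of its group, and Kcnj5 at 12.42 in VEGF-C replicate 4, the highest of its group.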

How the results depend on the processing

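Without 1 library in turn, log2 fold changes spanned -0.13 to 0.46 for Nppa, 0.31 to 0.61 for Nppb, -0.47 to -0.30 for Npr1, -0.12 to -0.04 for Npr2, 0.57 to 1.04 for Npr3 and 0.36 to 0.53 for Corin; Nppa was negative only without VEGF-C replicate 3. In these fits 0 to 2 members passed, and 1684 to 2906 of all genes, the fewest without VEGF-C replicate 3 and 1956 without VEGF-C replicate 1. The lists had 3 to 7 processing and cyclic GMP genes, 2 to 6 regulators and 0 to 2 stress genes past the threshold. With PBS replicate 1 and VEGF-C replicate 3 both left out, a fit added after the data were seen, Nppa was at -0.24 (adjusted p = 0.499), Corin at 0.50 did not pass (0.0718), 1 member and 1589 of all genes passed, and the lists had 3, 2 and 1. Corin also missed the threshold with library totals (log2 fold change 0.28) and without the variance trend (0.47, adjusted p = 0.0649). Npr1 missed it with limma-voom (-0.37, 0.0513), without the trend (-0.37, 0.0856) and by exact permutation (-0.37, 0.0857), so that 1 member passed with voom and 0 without the trend. Calls were gained by Npr2 with library totals (-0.28) and by Nppb in the authors' deposited table (0.50). Corin (authors' adjusted p = 0.00386) and Npr1 (0.0145) kept their calls in the authors' table. There 3 members passed, beside 21.7% of all its genes. With upper-quartile factors 4 regulators and 1 stress gene passed, and with library totals 3 processing genes, 3 regulators and 0 stress genes. Library totals gave 243 genes higher and 3572 lower, upper-quartile factors 797 and 1920, against 1328 and 1621 as deposited. No direction of a member changed with another scaling, pseudocount, filter or variance model. No paired analysis was possible because the replicate numbers are column numbers that tie to no animal. Depth limits Nppc, at under 20 normalized counts on average; the cause of each lost call was not tested.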

Other observations

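VEGF-C replicate 1 and PBS replicate 1 had nearly the same levels of 5 of the 6 natriuretic genes. Nppa had 28282 normalized counts in VEGF-C replicate 1 and 27464 in PBS replicate 1, and Nppb had 32574 in VEGF-C replicate 1 and 29848 in PBS replicate 1. Npr1 (2166 in VEGF-C replicate 1 and 2151 in PBS replicate 1), Npr2 (4554 in VEGF-C replicate 1 and 4682 in PBS replicate 1) and Npr3 (1492 in VEGF-C replicate 1 and 1498 in PBS replicate 1) were closer still. Corin had 7364 in VEGF-C replicate 1 and 6234 in PBS replicate 1. This pair was picked after its values were seen, and the likeness was not tested.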
